A study of Mus musculus with 4 samples.

Results

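The mitochondrial ribosomal protein genes of the mouse were taken as the protein-coding genes of the 19 autosomes whose symbol begins with Mrpl or Mrps followed by a digit, which gave 78 of 20720 genes. Of these, 49 have Mrpl symbols, the family named for the large subunit, and 29 have Mrps symbols, the family named for the small subunit. H3K27ac, an acetylation of histone H3 found at active promoters and enhancers, had been mapped by ChIP-seq in calf muscle (gastrocnemius) of female B6CASTF1/J hybrid mice 2 months old. There were 2 biological replicates, each from 2 pooled tissues and sequenced as 2 technical libraries, and the technical libraries of a replicate had been merged before deposit. All samples form 1 group with no treatment or altered gene named in the labels, so no groups of samples could be compared. The values below describe 1 tissue, and replicate spread is given as the values of the lists made from replicate 1 and replicate 2.

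Mitochondria carry their own ribosome, which translates the few proteins still encoded in mitochondrial DNA, all of them subunits of the respiratory chain and ATP synthase. Every protein of this ribosome is encoded in the nucleus, made in the cytosol and imported, while its RNAs come from mitochondrial DNA. Some of its proteins descend from those of the bacterial ribosome and others were added during the evolution of mitochondria. Skeletal muscle is rich in mitochondria, and the respiratory chain subunits made by this ribosome assemble with partners encoded in the nucleus. The symbols do not always follow the subunit, since Mrps30 and Mrps18a encode proteins that sit in the large subunit, and Mrps36 is known as a component of the ketoglutarate dehydrogenase complex.

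Sequences of the gene starts are shown first because many of the members carry strings known as binding sequences of factors tied to mitochondrial genes. RefSeq promoters on GRCm38.p6, each with 250 bases before and 50 bases from the start onward, were matched for 69 of the 78 members. Mrpl4, Mrpl13, Mrpl15, Mrpl19, Mrpl38, Mrpl54, Mrps28, Mrps34 and Mrps35 had no match. These RefSeq starts are used for sequences only, and the peak counts further on use GENCODE coding transcript starts. The RefSeq start lay within 50 bp of a GENCODE start in 57 of the 69, with a largest distance of 643 bp at Mrpl20. The string AAGATGGC, the core of the sequence bound by YY1, began within the first 40 bases after the start in 8 members, in each case on the strand of the gene. The windows of 30 bases around it are given for 7 of them, with the string in capitals. They lie at chr6:71823743-71823772 on the reverse strand, chr4:107066822-107066851 on the reverse strand, chr10:95501904-95501933 on the reverse strand, chr19:6057721-6057750 on the reverse strand, chr11:115604147-115604176 on the forward strand, chr17:46111004-46111033 on the forward strand and chr13:99344789-99344818 on the forward strand, in the order of the lines.
Mrpl35: aggcaggctgcAAGATGGCggcttccatct
Mrpl37: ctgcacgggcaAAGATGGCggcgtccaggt
Mrpl42: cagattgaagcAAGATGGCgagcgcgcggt
Mrpl49: gttgaggcgccAAGATGGCagcagcggtgt
Mrps7: tgacagcggccAAGATGGCtgcccccgcgc
Mrps18a: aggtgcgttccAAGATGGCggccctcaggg
Mrps27: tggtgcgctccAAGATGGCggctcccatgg
The string of the other member, Mrps24, began 37 bases after the start, too near the end of the promoter for such a window. The ATG inside the string was an annotated start codon in 6 of the 8, the exceptions being Mrpl37 and Mrpl42. Start codons of other genes were not looked up, so this count is not read as a trait of the members. A string that begins in the first 40 bases was found in 11.6% of the members' promoters, against 2.46% of the 9980 promoters of coding genes with an acetylated promoter and 1.64% of all 15691 coding promoters. On the strand of the gene alone, the shares were 11.6%, 2.14% and 1.41%. Most such strings thus lay on that strand in the wider sets too, so the strand is not read as a trait of the members.

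The shared starts of members and their neighbours are shown by 3 whole promoters, with the strings searched for NRF-1, ETS factors and YY1 in capitals. Mrpl32 lies beside Psma2, a proteasome subunit gene, at chr13:14612988-14613287 on the reverse strand. Mrps12, the decoding-centre protein of the small subunit, lies beside Sars2, which encodes the mitochondrial seryl-tRNA synthetase, at chr7:28741772-28742071 on the reverse strand. Mrps11 lies beside Mrpl46, so that 1 stretch of sequence holds the starts of a small and a large subunit gene, at chr7:78782881-78783180 on the forward strand.
Mrpl32: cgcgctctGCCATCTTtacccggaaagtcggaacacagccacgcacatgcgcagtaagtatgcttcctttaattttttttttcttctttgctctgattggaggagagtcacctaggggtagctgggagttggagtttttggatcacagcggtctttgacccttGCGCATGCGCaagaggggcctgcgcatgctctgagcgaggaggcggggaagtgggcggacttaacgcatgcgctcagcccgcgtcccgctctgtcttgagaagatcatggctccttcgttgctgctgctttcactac
Mrps12: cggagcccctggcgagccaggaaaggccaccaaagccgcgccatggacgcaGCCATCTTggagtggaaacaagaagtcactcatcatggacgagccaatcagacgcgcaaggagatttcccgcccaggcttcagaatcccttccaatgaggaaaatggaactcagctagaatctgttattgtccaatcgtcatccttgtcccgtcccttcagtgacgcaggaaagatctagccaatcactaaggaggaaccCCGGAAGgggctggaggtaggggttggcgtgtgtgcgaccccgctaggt
Mrps11: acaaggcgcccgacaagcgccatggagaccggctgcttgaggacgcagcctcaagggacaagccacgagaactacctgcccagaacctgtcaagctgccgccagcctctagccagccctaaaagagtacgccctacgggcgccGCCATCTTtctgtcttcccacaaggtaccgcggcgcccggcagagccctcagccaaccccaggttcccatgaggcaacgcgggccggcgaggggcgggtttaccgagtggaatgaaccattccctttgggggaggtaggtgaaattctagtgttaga
In these 3 promoters the YY1 string read on the strand of the partner. No other member's promoter held the string near a neighbour's start on that strand. These 3 therefore do not stand for the 34 members that share a promoter region with another coding gene. The string began 33 bases after the start of Psma2, 12 bases after that of Sars2 and 59 bases after that of Mrpl46. The Mrpl32 promoter also holds the NRF-1 string with no free base, 87 to 78 bases before the start, and the Mrps12 promoter holds the ETS string from base 2 to base 8 after it.

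A total of 11 strings was searched on both strands, and those for NRF-1, ETS factors and YY1 were found in a larger share of the members' promoters than of acetylated promoters in general. The NRF-1 string with 1 free base in its middle was present in 13 of 69 promoters (18.8%), against 10.3% of promoters of all coding genes with an acetylated promoter and 6.95% of all coding promoters. NRF-1 is a factor known to bind genes of the respiratory chain and of mitochondrial DNA maintenance. With no free base, as in the capitals of Mrpl32 above, the NRF-1 string was present in Mrpl9, Mrpl32 and Mrpl39 (4.35%, against 2.03% and 1.41%). That share rests on few members. The ETS string CCGGAAG, the core bound by GABP, another factor tied to respiratory genes, was present in 24 promoters (34.8%, against 18.2% and 12.6%). The YY1 string was present anywhere in 12 promoters (17.4%, against 4.48% and 3.25%). At least 1 of these 3 strings was present in 41 of the 69 promoters (59.4%), against 29.3% and 20.4%, and no match of one overlapped a match of another.

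The other strings were not more frequent than in acetylated promoters at large, or rested on few members. CCAAT, bound by NF-Y, was found in 39.1% of the members' promoters and 37.9% of acetylated promoters. GGGCGG, bound by Sp1, was found in 49.3%, below the 64.5% of acetylated promoters and near the 48.5% of all coding promoters. CACGTG (E-box) was found in 7.25% against 10.1%, TGACGTCA (CRE) in 2.9% against 3.19%, and TATAAA, a core promoter element, in 5.8% against 7.04%. AAGGTCA, bound by the estrogen-related receptors, was found in 4 members (5.8% against 2.97%), and ACTACAA, bound by ZNF143, in 5 (7.25% against 4.27%).

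The respiratory chain and cytosolic ribosome families, searched in the same way, showed other mixes. NRF-1 strings with 1 free base were more frequent in the 64 respiratory chain promoters (26.6%) and less frequent in the 60 cytosolic ribosomal protein promoters (8.33%) than in the members (18.8%). ETS strings were found in 23.4% and 41.7% of these, against 34.8% of the members. YY1 strings were found in 12.5% and 8.33%, against 17.4%. Within the members, the NRF-1 string with 1 free base was present in 10 of 43 Mrpl promoters (23.3%) and 3 of 26 Mrps promoters (11.5%). The Mrps share was close to the 10.3% of acetylated promoters. The YY1 string was present in 6 Mrpl promoters (14.0%) and 6 Mrps promoters (23.1%). The median GC content was 58.3% in the members (42.3% to 78.0%), 61.0% in acetylated promoters and 57.0% in all coding promoters. The median number of CpG dinucleotides was 21.0 in the members and in acetylated promoters but 14.0 in all coding promoters, so the first is the closer background for strings that hold CpG, such as those of NRF-1, ETS and Sp1. A match is a string in the reference sequence, and no factor's binding was measured.

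**Figure D1:**
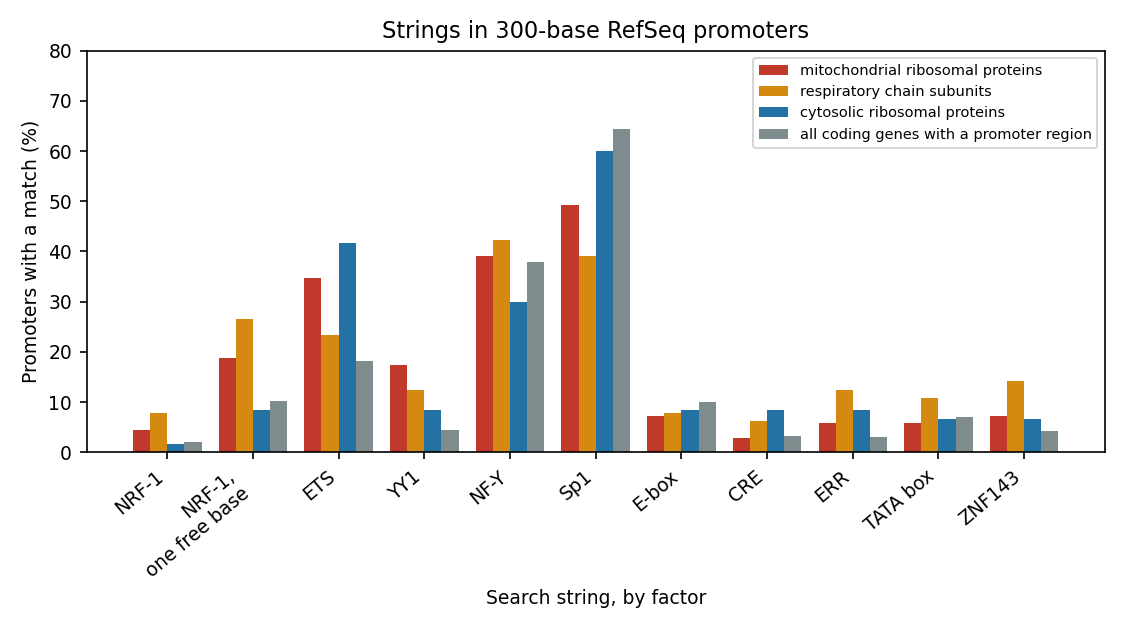
Share of 300-base RefSeq promoters (y axis, percent) with at least 1 match to each search string (x axis, named by factor), for the 69 matched mitochondrial ribosomal protein genes, 64 respiratory chain subunit genes, 60 cytosolic ribosomal protein genes and 9980 coding genes with an acetylated promoter. The members stand above the coding genes with an acetylated promoter for NRF-1, ETS and YY1 (YY1 17.4% against 4.48%). They stand below those genes for Sp1 (49.3% against 64.5%).

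Every member had an acetylated promoter. A region of the replicated list lay within 1 kb of an annotated coding start in 78 of 78 members, against 62.1% of all 20720 coding genes. The same held in the list of replicate 1 (78, against 59.7%), in that of replicate 2 (78, against 62%) and in both of these together (78, against 59.5%). Within 5 kb the count was again 78, against 65.7%. The authors' −log10 q of the strongest promoter region ranged from 72.96 at Mrps18c, a small subunit protein with a bacterial counterpart, to 703.4 at Mrpl54. With 1 group of samples and genes that are not replicates, these counts carry no test.

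The acetylated stretch covered the start itself in 75 of the 78 members (96.2%). The share was 57.2% of all coding genes but 92.1% of coding genes with an acetylated promoter, the like set, so this count is close to the background. The exceptions were Mrpl32, Mrpl38 and Mrpl45, whose GENCODE starts lay 28, 11 and 13 bp outside the nearest region. The RefSeq start of Mrpl32, 128 bp away from its GENCODE start, lay inside a region. Each of these had 2 promoter regions, and Mrpl45 encodes the protein that anchors the ribosome to the inner membrane near its exit tunnel. The summit of the strongest region lay downstream of the nearest start in 60 members (76.9%) and upstream in 18. Its median position was 133 bp downstream. Over all coding genes with an acetylated promoter the share was 69.3% and the median 127 bp, close to the members. The share was 93.5% in respiratory chain genes and 56.4% in cytosolic ribosomal protein genes. In the members the summit lay within 250 bp of a start in 67 and within 500 bp in all 78. In 35 members the summit fell in an exon, in 29 it fell inside the gene outside exons, and in 14 it fell outside the gene. No share over all genes is given for these distances and places, so they are not read as a trait of the members.

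The regions were short on the side of the transcribed gene. At 1 kb downstream of the 5' end, a region was present in 30 of the 78 members (38.5%), against 61.1% of the 12863 coding genes with an acetylated promoter. The same position was covered in 88.3% of respiratory chain subunit genes and 87.2% of cytosolic ribosomal protein genes with such a promoter. In the list of replicate 1 the 4 shares were 19.2%, 51.7%, 75.3% and 66.7%, in the order members, all genes, respiratory chain and cytosolic ribosome, and in that of replicate 2 they were 37.2%, 60.7%, 87.0% and 87.2%. The order of the members below the other 3 sets was thus the same in both replicates, while the share of the members in replicate 1 was 15 of 78 against 29 of 78 in replicate 2.

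Upstream the members did not stand apart in this way. At 1 kb upstream, 33.3% of the members were covered, against 37% of all coding genes with an acetylated promoter, 45.5% of respiratory chain genes and 35.9% of cytosolic ribosomal protein genes. At 2 kb downstream the shares were 6.41% of the members, 29.3% of all genes with an acetylated promoter, 32.5% of respiratory chain genes and 17.9% of cytosolic ribosomal protein genes. Over 5 kb to each side of the 5' end, the median covered length of the members was 785.5 bp upstream and 1003.5 bp downstream. The medians were 873.0 and 1353.0 bp for all genes with an acetylated promoter, 990.0 and 1603.0 bp for respiratory chain genes, and 901.5 and 1441.0 bp for cytosolic ribosomal protein genes. Gene length differs between these sets, with medians of 7899.5 bp in the members, 7456.0 bp in respiratory chain genes, 3399.5 bp in cytosolic ribosomal protein genes and 23976.0 bp in all genes with an acetylated promoter, and its part in the result was not tested. Counted from the start nearest to the summit in place of the 5' end, a choice made after seeing the data, the shares at 1 kb downstream were 33.3% of the members and 60.9%, 84.4% and 83.3% of the other sets.

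**Figure D2:**
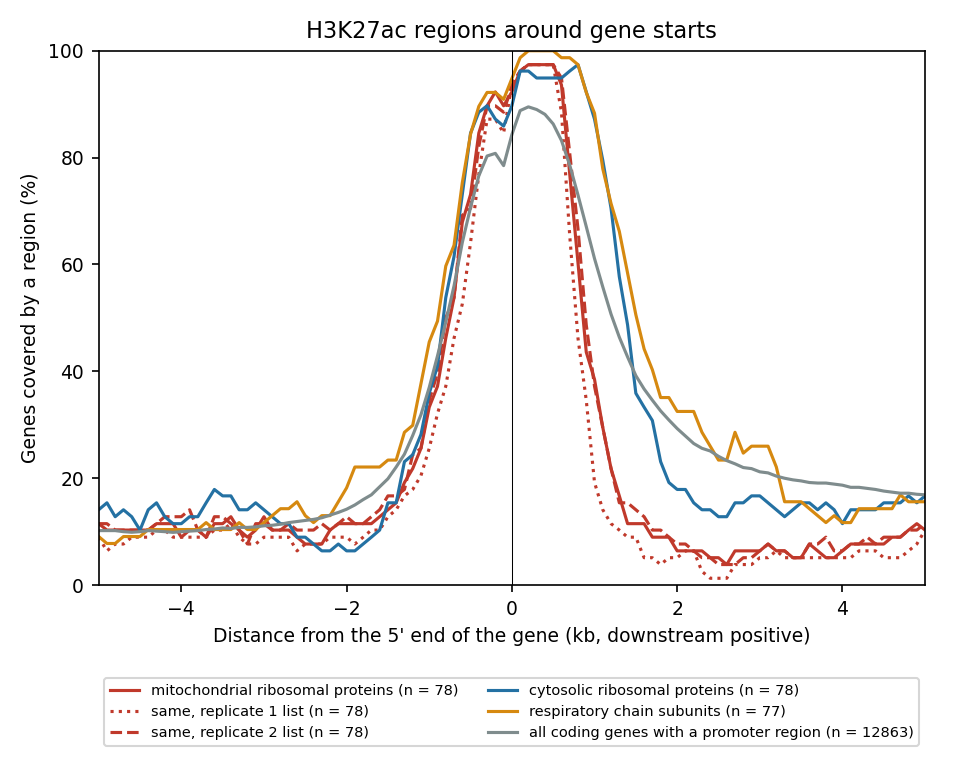
Share of genes (y axis, percent) with an H3K27ac region over each position from 5 kb upstream to 5 kb downstream of the 5' end (x axis, kb), for genes with an acetylated promoter in the replicated list, with the members also shown in each replicate list. At 1 kb downstream the members stood at 38.5%, below all coding genes with an acetylated promoter at 61.1%. At 1 kb upstream the shares were 33.3% and 37.0%.

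Acetylated length was measured for each gene as the base pairs covered within 5 kb to each side of a start, at the start with the largest value, so that a gene covered throughout reaches the full window. Its median over the members was 1762.5 bp (quartiles 1391.0 and 2753.2 bp), and it was 1619.0 bp in replicate 1 and 1865.0 bp in replicate 2. All coding genes with an acetylated promoter had a median of 2608.0 bp, and 56 of the 78 members lay below the middle rank of these genes. The medians were 2643.0 bp over 81 respiratory chain subunit genes and 2499.0 bp over 80 cytosolic ribosomal protein genes. Under 2000 bp were covered at 44 members, under 3000 bp at 60 and under 5000 bp at 74. No shares over all genes are given for these limits, so the counts are not read as a trait of the members. The quartiles of all coding genes with an acetylated promoter were 1649.0 and 4487.0 bp. The muscle genes Acta1, Ckm, Mb, Myh4 and Tnnt3 had 8611 bp or more, and markers of heart (Myh6, Nppa, Tnnt2), liver (Alb, Apoa1) and neurons (Rbfox3, Snap25) were all at 0.

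Signal, a value the authors gave for each region, was not low in the members as a set. Of the 56 members below the middle rank in length, 32 lay above the middle rank in signal and the rest did not. The highest signal value of a promoter region had a median of 32.9 in the members (25.74 in replicate 1 and 35.18 in replicate 2), against 27.75 for all coding genes with an acetylated promoter. What the value is relative to is not given, so it was read only as a rank within a list. By rank 51 of the 78 members lay above the middle of these genes, and the lowest member lay at percentile 17.8. Members above the middle rank in signal and below it in length numbered 32 (41.0%), against 17.2% of all genes with an acetylated promoter. The share was 35.9% against 16.6% in replicate 1 and 39.7% against 17.0% in replicate 2. It was 39.0% in respiratory chain genes and 35.9% in cytosolic ribosomal protein genes, so that this combination was as frequent in those families as in the members. Respiratory chain genes had the higher median signal, 43.54, and cytosolic ribosomal protein genes 34.51. Across the 78 members length and signal were related with a Spearman rho of 0.51 and a Pearson r of 0.48, as a description over genes that share the same libraries.

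**Figure D3:**
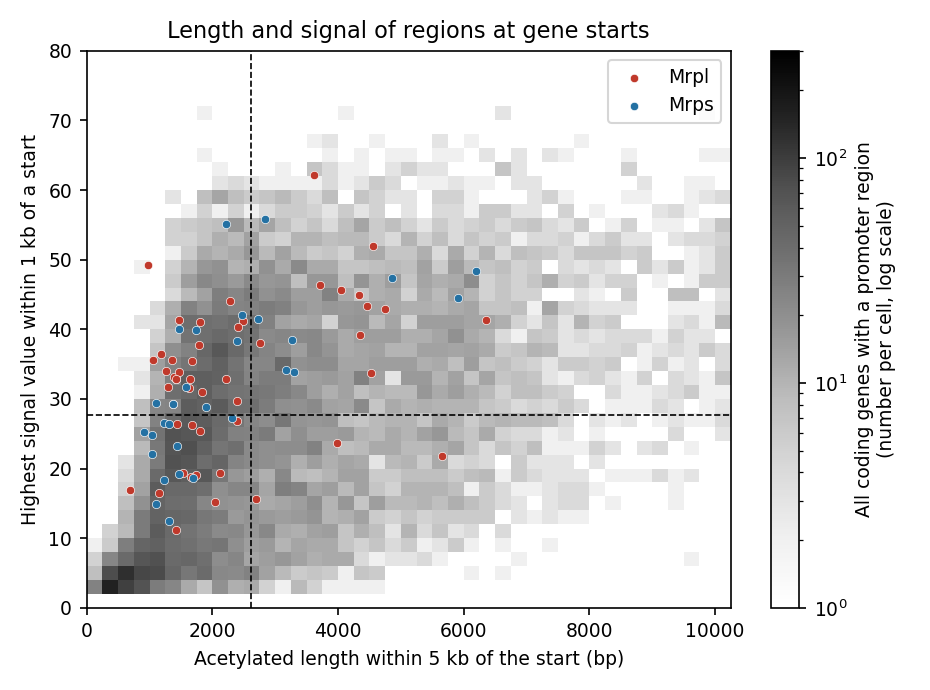
Acetylated length within 5 kb of the start (x axis, bp) against the highest signal value within 1 kb of a start (y axis, the authors' value) in the replicated list, with the 78 members as points over the density of all 12863 coding genes with an acetylated promoter (grey, log scale). Dashed lines are the medians of those genes, 2608.0 bp and 27.75, and 32 members lie in the upper left field.

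The large and small subunit families differed little beside the spread within each. The median length was 1805.0 bp for the 49 Mrpl genes (1625.0 bp in replicate 1, 1960.0 bp in replicate 2) and 1696.0 bp for the 29 Mrps genes (1480.0 and 1830.0 bp). Quartiles were 1427.0 to 2760.0 bp and 1311.0 to 2733.0 bp. The median signal was 33.19 for the Mrpl genes (quartiles 26.24 and 41.03) and 29.35 for the Mrps genes (24.83 and 40.0). The 44 members listed as having a bacterial counterpart, which take in Mrps18c but not its relatives Mrps18a and Mrps18b, had a median of 1603.0 bp and the 34 others 1870.5 bp. Their medians were 1341.5 and 1797.0 bp in replicate 1, and 1782.5 and 1943.0 bp in replicate 2. The median signal of these sets was 32.9 and 33.31.

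**Figure D4:**
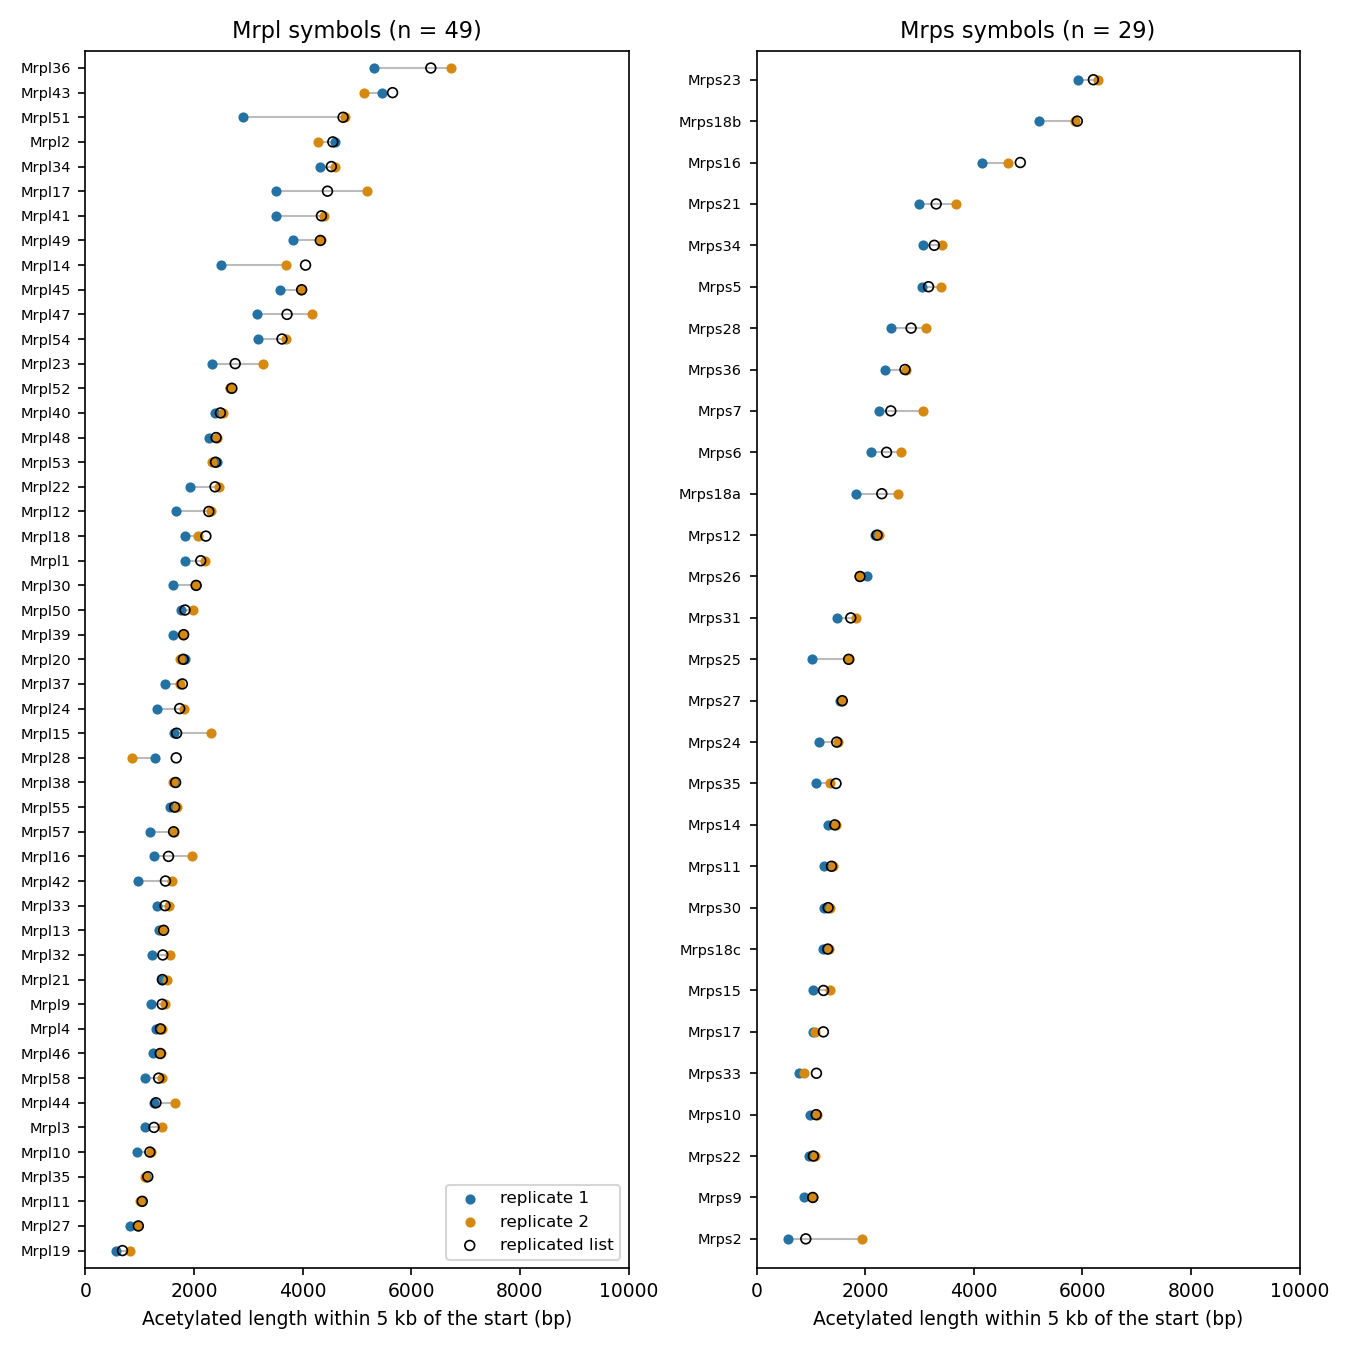
Acetylated length within 5 kb of the start (x axis, bp) for each of the 49 Mrpl genes (left) and 29 Mrps genes (right), ordered by the replicated list (open circles), with replicate 1 in blue and replicate 2 in orange joined by a line. Most members lie under 3000 bp, with Mrpl36 (6361 bp) and Mrps23 (6201 bp) at the top and Mrpl19 (685 bp) and Mrps2 (907 bp) at the bottom.

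Among large subunit genes with bacterial counterparts, the stretches spanned the whole range of the family. Mrpl36, a small protein near the peptidyl transferase centre, had 6361 bp (5312 bp for replicate 1, 6732 bp for replicate 2), of which 4309 bp lay in its promoter regions and 2052 bp in 3 further regions over the neighbouring Ndufs6. Mrpl2, a core protein of the peptidyl transferase centre, had 4557 bp (4593 and 4293 bp), with a signal of 52.0. Mrpl34 had 4530 bp (4313 and 4589 bp), including a second region at Dda1. All 3 lay above the upper quartile of the members in both replicates. They were picked for their length in the replicated list, which comes from the same replicates, so this is not separate support.

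Mrpl17, located where the nascent chain leaves the ribosome, had 4459 bp and a wide spread between replicates (3517 and 5179 bp). At the other end, Mrpl19 had 685 bp (563 and 816 bp), the least of all members in the replicated list and in both replicates. Mrpl11 and Mrpl10, both at the base of the stalk that recruits translation factors, had 1049 bp (1018 and 1011 bp) and 1189 bp (955 and 1206 bp). Mrpl12, the stalk protein itself, was at 2275 bp (1667 and 2320 bp) with a signal of 44.0, and is named here for its role, after its values were seen.

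Mrpl27, a protein that reaches into the peptidyl transferase centre, combined a short stretch with a high signal. It had 977 bp (829 and 974 bp), while its signal of 49.3 (41.2 in replicate 1 and 50.2 in replicate 2) lay at percentile 90.3 of genes with an acetylated promoter. Both replicates placed it there, at percentiles 91.2 and 91.5. Its single region, at chr11:94653555-94654531, also holds the start of Eme1, a DNA repair nuclease subunit gene. Mrpl35 had 1151 bp (1126 and 1106 bp), all of it at a start inside the gene model, since no region lay within 1 kb of its outermost annotated 5' end.

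Mrpl14 had 4055 bp in the replicated list but 2505 bp in replicate 1 and 3694 bp in replicate 2, so the replicated list was longer than either. This was so for 19 of the 78 members, and no share over all genes is given beside it. Mrpl28 was the clearest case, with 1674 bp in the replicated list against 1292 bp in replicate 1 and 858 bp in replicate 2. Mrpl47, near the exit tunnel, had 3714 bp (3169 and 4173 bp) and a signal of 46.4.

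Of the large subunit genes outside the list of bacterial counterparts, Mrpl54 had the highest signal of all members, 62.2 in the replicated list, at percentile 98.8. It was 56.8 in replicate 1 and 54.4 in replicate 2, at percentiles 99.6 and 95.8. Its length was 3621 bp (3171 and 3691 bp). Mrpl43 was the reverse, with a long stretch of 5657 bp (5466 and 5128 bp) and a signal of 21.8 at percentile 36.9, although the percentiles were 52.4 and 66.1 in the single replicates.

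Mrpl51 had 4746 bp and the largest gap between replicates of all members, 2897 bp in replicate 1 against 4776 bp in replicate 2. Mrpl41 had 4348 bp (3516 and 4388 bp) in 1 unbroken region, and Mrpl49 had 4327 bp (3825 and 4333 bp) with a signal of 44.9. Each of these 3 had a neighbour's start in its region.

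In the small subunit, Mrps23 had the longest stretch, 6201 bp (5914 and 6287 bp). Nearly all of it was 1 region of 6175 bp at chr11:88199500-88205674 that ran upstream of the gene, with no other coding start within 5 kb. Mrps18b had 5905 bp (5203 and 5871 bp). Mrps16, which binds the ribosomal RNA of the small subunit, had 4856 bp (4145 and 4629 bp) with a signal of 47.4, but only 1945 bp of it lay in its promoter region.

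Mrps28 and Mrps12 had the highest signals of the small subunit family. Mrps28 reached 55.8 (48.4 and 52.0) with 2845 bp (2469 and 3125 bp), and Mrps12 reached 55.1 (45.0 and 56.0) with 2219 bp (2182 and 2260 bp). The percentiles in the single replicates were 97.2 and 93.6 for Mrps28 and 94.7 and 96.9 for Mrps12. The Mrps12 region, at chr7:28740938-28743156, contains the promoter whose sequence is given above.

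The shortest stretches of the small subunit were at Mrps2, Mrps9, Mrps22, Mrps10 and Mrps33. Mrps2 had 907 bp, and its replicates stood far apart, at 585 and 1934 bp, the largest ratio of all members (3.31). Mrps9 had 1035 bp (882 and 1036 bp), Mrps22 1046 bp (971 and 1076 bp) and Mrps10 1098 bp (978 and 1110 bp). Mrps33 had 1103 bp (777 and 867 bp). In these last 4 genes the replicates differed by 154 bp or less.

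The replicates ranked the members alike, with replicate 2 longer. Length was greater in replicate 2 for 69 members and in replicate 1 for 9, and 89.2% of all coding genes with an acetylated promoter were longer in replicate 2. The median ratio of replicate 2 to replicate 1 was 1.16 in the members and 1.18 in those genes. The largest differences toward replicate 2 were at Mrpl51 (1879 bp), Mrpl17 (1662 bp), Mrpl36 (1420 bp), Mrps2 (1349 bp) and Mrpl14 (1189 bp). Toward replicate 1, length fell by 434 bp at Mrpl28, fell by 338 bp at Mrpl43, fell by 300 bp at Mrpl2, fell by 138 bp at Mrps26 and fell by 92 bp at Mrpl20 from replicate 1 to replicate 2. Across the 78 members, length in the 2 replicates had a Pearson r of 0.956 and a Spearman rho of 0.926, and signal 0.916 and 0.924, as a description over genes measured in the same libraries.

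A large share of the members had a promoter region in common with another coding gene. This was so for 34 of 78 (43.6%), against 12.9% of all coding genes and 20.8% of those with an acetylated promoter. The share was 32.1% in respiratory chain genes and 23.8% in cytosolic ribosomal protein genes, and among the members 24 of 49 Mrpl and 10 of 29 Mrps genes. The partner was transcribed away from the member in 24 cases, overlapped it head to head in 9 and lay on the same strand in 2, with Mrps34 counted in the first and the last. A coding start pointing away within 1 kb, which needs no peak, was present at 25 members (32.1%), against 9.23% of all coding genes and 14.2% of those with an acetylated promoter. It was present at 24.7% of respiratory chain genes and 16.2% of cytosolic ribosomal protein genes. The starts of the divergent pairs lay 26 to 1304 bp apart, with a median of 82.0 bp. This median and the 24 cases are counted per member, so Mrpl46 and Mrps11, partners of each other, enter from both sides. Orientations and distances are not given over all genes that share a region, so they are not read as traits of the members.

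One pair consisted of members on both sides. Mrpl46, of the central protuberance of the large subunit, and Mrps11, of the small subunit, start 30 bp apart and had 1 region of 1380 bp at chr7:78782511-78783890 (1239 bp in replicate 1 and 1403 bp in replicate 2), which holds both starts. Its signal was 29.2 (24.2 and 40.8). The 2 genes are therefore 1 measurement and not a pair of independent ones.

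Ranked by signal, the sharing members began with Mrpl54 and Apba3, an adaptor protein gene, 26 bp apart. They went on with Mrps12 and Sars2 (182 bp), Mrpl2 and Klc4, a kinesin light chain gene (207 bp), and Mrpl27 and Eme1 (197 bp). Mrpl47 overlapped Ndufb5, a subunit of respiratory complex I (76 bp), and farther down the list Mrpl36 overlapped Ndufs6, another subunit of that complex (29 bp). In these 2 pairs and in that of Mrps12, both partners act in mitochondria.

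Mrpl14 shared its region with Tmem63b (63 bp), and Mrpl49 with Fau, which encodes a cytosolic ribosomal protein as a fusion (59 bp). Mrps18b lay beside Ppp1r10 (177 bp), and Mrpl51 beside Ncapd2, a condensin subunit gene (464 bp). Mrps7, of the head of the small subunit, overlapped Gga3 (126 bp), Mrpl40 lay beside the histone chaperone gene Hira (175 bp) and Mrpl48 overlapped Rab6a (611 bp). Mrpl41 lay 935 bp from Pnpla7, and Mrps34 lay 29 bp from Eme2. Of the partners farther down, Twnk at Mrpl43 (116 bp) encodes the helicase of mitochondrial DNA replication, Ptcd2 at Mrps27 (81 bp) a mitochondrial RNA-binding protein, and Tcp1 at Mrpl18 (16 bp) a subunit of the cytosolic chaperonin; these 3 are named after their values were seen.

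A neighbouring start went with a longer stretch. Only starts of coding transcripts were counted, so Mrpl44 is among the members with no neighbour although the outer end of the Wdfy1 gene model lies 125 bp from its start. The 40 members with no other coding start within 5 kb had a median of 1654.5 bp (1319.0 bp for replicate 1, 1668.5 bp for replicate 2), and the 38 with one had 2391.5 bp (2143.5 and 2445.5 bp). Over all genes with an acetylated promoter these medians were 2508.5 and 2878.0 bp. Among respiratory chain genes they were 2445.0 and 3714.0 bp, and among cytosolic ribosomal protein genes 2141.0 and 3822.0 bp. Members without a neighbour were therefore shorter than the corresponding genes of each of these sets. A single region within 5 kb was present at 50 members (64.1%), against 47.4% of coding genes with an acetylated promoter, 57.1% of respiratory chain genes and 44.9% of cytosolic ribosomal protein genes. Of the other members, 19 had 2 regions and 9 had 3 or more. In 59 members every acetylated base pair counted lay in a promoter region, a count given without a share over all genes and so not read as a trait of the members.

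Other genes of mitochondrial translation were acetylated at their promoters as well, against a share of 59.5% of all coding genes with such a region in each replicate list. All 5 mitoribosomal protein genes with other names had one, with a median length of 4651.0 bp. Chchd1 had 5880 bp (4252 and 5911 bp), Aurkaip1 5097 bp, Ptcd3 4651 bp, Dap3 3794 bp and Gadd45gip1 2183 bp (2156 and 2147 bp). All 11 translation factor genes had one, with a median of 1775.0 bp. The longest stretches were at the recycling factor gene Mrrf, 3940 bp (3241 and 3794 bp), at the elongation factor gene Tufm, 3366 bp, and at the initiation factor gene Mtif3, 2851 bp. The shortest were at Mtfmt, which formylates the initiator tRNA, 816 bp (717 and 787 bp), and at the elongation factor genes Tsfm, 979 bp, and Gfm1, 1130 bp.

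A promoter region was likewise present in both lists at all 23 ribosome assembly genes, with a median of 1741.0 bp. The longest stretches were at Mpv17l2, 7681 bp (4721 and 6917 bp), Mrm1, 3948 bp, and Rcc1l, 2572 bp, and the shortest at Fastkd2, 1005 bp (949 and 988 bp), Mrm2, 1064 bp, and Eral1, 1131 bp. All 8 genes of mitochondrial DNA transcription, replication and RNA stability had one as well, with a median of 2255.0 bp. The longest were at the transcription factor gene Tfb2m, 5979 bp (4600 and 6032 bp), at Twnk, 5694 bp, which shares its region with Mrpl43, and at the elongation factor gene Tefm, 2836 bp. The shortest were at Polrmt, the mitochondrial RNA polymerase gene, 1025 bp (843 and 1203 bp), at Tfam, the gene of the factor that packages mitochondrial DNA, 1654 bp (1583 and 1596 bp), and at Slirp, 1667 bp.

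In the wider families a promoter region was missing at 2 of 80 cytosolic ribosomal protein genes, Rpl10l and Rpl39l, and at 4 of 81 respiratory chain records, Cox6b2, Cox7b2, Cox8c and 1 record of Atp5o. Among the longest stretches of the respiratory chain list were those at Ndufb10, 9434 bp (7681 and 9437 bp), and Sdhb, 8083 bp. Among those of the cytosolic list were Rpl3l, covered throughout the window, and Rps14, 9772 bp, and its shortest with a region was Rpl5, 1516 bp. No RNA or protein was measured in these samples, so the regions give the state of the promoters and not the output of the genes.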

How the data were processed

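The authors deposited 4 lists of H3K27ac peaks on mm10, 1 for each replicate, 1 for both replicates pooled and 1 called replicated, per the labels and the descriptions deposited with them. Per peak, the authors gave signal values, p-values and q-values on a −log10 scale, and a summit offset in bp. Aligner, peak caller and thresholds were not given in the sources used here. Read counts are not in the lists, so depth is unknown and no interval needing it is given; the replicated list has 82994 autosomal peaks, replicate 1 has 69747 and replicate 2 has 85382.

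Starts were those of protein-coding transcripts in GENCODE M21, basic set. A promoter region is a peak within 1000 bp of a start, and acetylated length was counted within 5000 bp. Strings were searched in RefSeq promoters of GRCm38.p6. Scripts used Python 3.11.15 and numpy 2.4.6, and the counting was tested on simulated peaks. Members and lists were chosen with earlier results of these data known. Named are the 10 longest, 10 shortest and 10 highest in signal, the 5 largest replicate differences each way, members sharing a region with a member, and the first 15 sharing a region by signal; of other lists, genes without a promoter region, the 3 longest and the 3 shortest, of which some are not reported here. Alternatives were the pooled list, each replicate alone, a −log10 q of at least 5, other windows and the 5' end alone.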

Additional observations from a re-analysis of the deposited data

How the results depend on the processing

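Of 45 values recomputed under alternatives, 42 stayed within 1.5 times the reported count or within 1 SD of the replicates. Some of these could hardly move, so the count says little about robustness. A −log10 q of at least 5 removed no member's strongest promoter region, the lowest being 72.96. A wider promoter window could not change a count already at 78 of 78. The SD came from the same 2 replicates that were left out in turn. The median length became 5064.0 bp with 25 kb to each side, a window that takes in other genes. Leaving out 1 replicate gave a median signal of 25.74 to 35.18 (25.74 without replicate 2), a median length of 1619.0 to 1865.0 bp, and 15 to 29 members covered 1 kb downstream of the 5' end (15 without replicate 2). Counting from the outermost 5' end only, 77 members had a promoter region (Mrpl35 did not), 76 had one in both replicates and 72 had the start inside a region. No paired analysis was possible because there is 1 group of samples. The deposited lists depend on depth, which is unknown, and replicate 2 has more and longer regions in general.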
